A study of Nematostella vectensis with 84 samples.

Results

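A set of 80 genes of the sea anemone Nematostella vectensis was higher in the libraries lettered A to C than in those lettered D to F after calcium-free KSW and after cytochalasin D. The series holds 84 libraries made from RNA of adult oral discs with tentacles. In streptomycin, whose libraries took no part in ranking the genes, most of them (88.75%) were lower in A to C. So were 69.0% of the 5932 genes considered. The 80 genes were taken from 23510 gene models. Of these, 5932 had a mean level over all 84 libraries, streptomycin included, of at least 20 CPM, which is the read count scaled to a common library size after the 10 genes with most reads are left out of the total. Members were chosen by a measured difference, the log2 of CPM plus 5 in library A, B or C minus that in its partner D, E or F of the same time point, averaged over time points and pairs. It was above 0 in both calcium-free KSW and cytochalasin D in 2633 genes, and the 80 with the largest smaller value were kept. Calcium-free T2 C and T2 F were left out of the choice. T2 F stands apart, since its 10 most read genes took 9.31% of its reads, against a median of 34.8% over the 15 calcium-free D to F libraries.

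The series has 14 groups of 6 libraries. Calcium-free KSW (an abbreviation that the labels leave unexplained) and cytochalasin D have time points T0 to T4, sampled at hours of recovery. Streptomycin has T0 to T3, which are lengths of exposure, each followed by the same recovery. How long each exposure lasted is not stated in the labels. The labels call A to F replicates. The design text counts 3 replicates and 2 conditions per time point, but nothing says what, if anything, A to C have in common that D to F lack. No untreated series was analysed here, and no strain, sex or number of animals per library is given.

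Sea anemone tentacles carry stinging cells and hair bundle mechanoreceptors, whose bundles of actin-filled protrusions resemble those of vertebrate hair cells. Cytochalasin D caps actin filaments, aminoglycosides such as streptomycin block transduction channels in vertebrate hair cells, and removal of calcium breaks the fine links within their bundles. The deposited identifiers are numbered gene models, and 0 of them were found in the RefSeq gene table of assembly jaNemVect1.1. No member can therefore be given a name or a role, and no markers of stinging, sensory, muscle or gland cells could be read to check the tissue. In whole tissue, fewer cells of a type and less RNA per cell cannot be told apart.

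The members are genes of modest abundance. Their mean level over all libraries ran from 20.3 to 420 CPM with a median of 33.2 CPM, against a median of 46.4 CPM for the 5932 genes they were taken from, and 56 of the 80 lay below that median. None was among the 10 genes with most reads. The libraries are shallow, at 194043 to 591692 reads. One read was worth 1.86 to 7.25 CPM in calcium-free KSW, 2.07 to 5.33 CPM in cytochalasin D and 4.03 to 9.46 CPM in streptomycin. In streptomycin the typical member had 4.19 reads per library, and 46 of the 80 had at least 1 library with no read, so single values of most members carry a large counting error.

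In the libraries that chose them, the members' mean difference between A to C and D to F ran from 0.54 to 1.43 in calcium-free KSW (median 0.74) and from 0.53 to 1.37 in cytochalasin D (median 0.65). These values made the choice and are given without a test. The medians of all 5932 genes were 0.11 and 0.05. The last genes kept, at ranks 79 and 80, had smaller differences of 0.533 and 0.530, and the first left out, at ranks 81 and 82, had 0.529 and 0.525, so the list has no natural edge. Since the choice averaged over these pairs, positive medians were largely fixed by it. The median of the 80 was above 0 in 15 of 15 calcium-free pairs (0.20 to 1.23, with 14 of the pairs used in the choice) and in 15 of 15 cytochalasin D pairs (0.50 to 1.13).

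The member at rank 1, NVE22092, had 24.4, 72.1 and 108 CPM in calcium-free A to C (lowest, median and highest of 15 libraries), against 0, 17.98 and 64.8 CPM in D to F. Both sets overlap in range, and the A to C median exceeds the highest D to F library. In cytochalasin D it averaged 48.3 ± 20.9 CPM in A to C and 17.1 ± 10.9 CPM in D to F (SD, n = 15 each). In streptomycin its order was the other way, at 8.41 ± 8.01 CPM in A to C and 13.7 ± 4.72 CPM in D to F (SD, n = 12 each). The member at rank 2, NVE4723, varied more between libraries. It averaged 111.6 ± 79.1 CPM in A to C and 61.2 ± 50.8 CPM in D to F in calcium-free KSW, and 170 ± 130 CPM in A to C and 67.3 ± 59.7 CPM in D to F in cytochalasin D. In streptomycin it averaged 21.7 ± 20.4 CPM in A to C and 43.5 ± 57.7 CPM in D to F, an SD larger than the mean.

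One cytochalasin D library that entered the choice, T2 B, was also unlike its group, with 584632 reads against 294384 to 364534 in the other 5 libraries, 17053 genes with a read against 13197 to 14605, and 17.2% of reads in the 10 most read genes against 26.6% to 30.8%. Without T2 B and its partner T2 E all 80 members stayed above 0 in cytochalasin D (lowest 0.38, median 0.62). Choosing anew without that pair kept 72 of the 80, and 72 of the 80 genes then chosen were below 0 in streptomycin, with a median of −0.38.

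**Figure D1:**
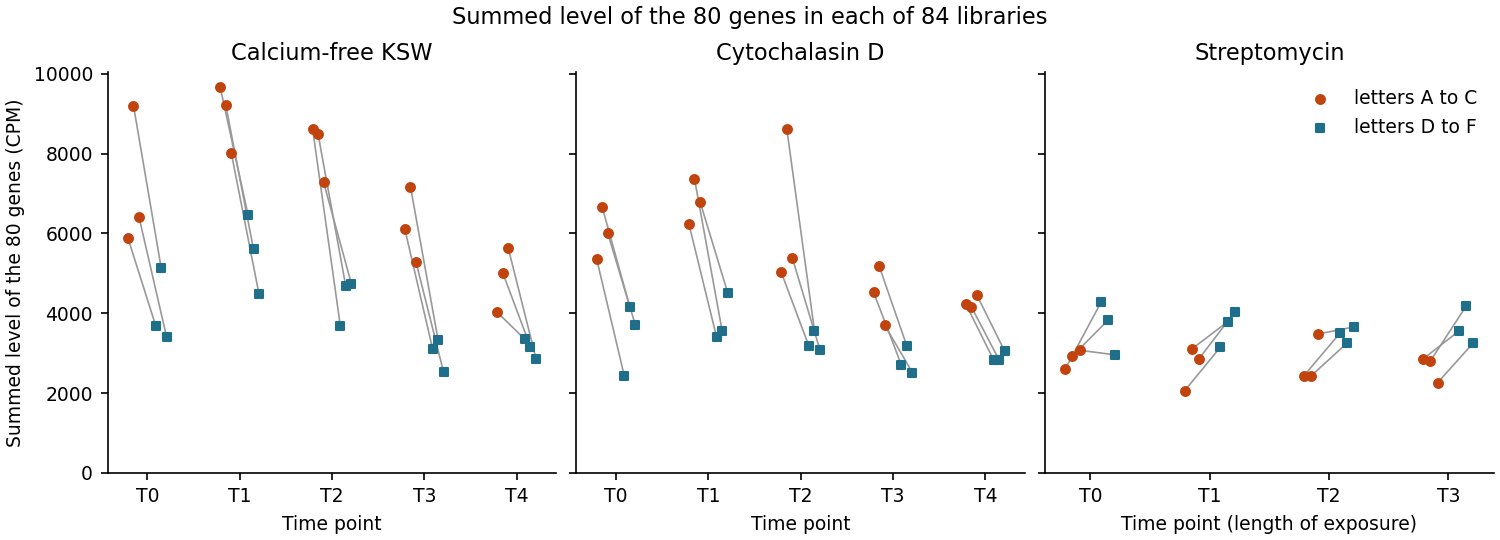
Summed level of the 80 genes in CPM (vertical axis) in each library by time point (horizontal axis), with circles for letters A to C, squares for letters D to F and lines joining partners. A to C is above its partner in all 30 pairs of calcium-free KSW and cytochalasin D, and in 1 of 12 pairs of streptomycin.

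Added up, the 80 genes took 7062 ± 1747 CPM in A to C and 4011 ± 1122 CPM in D to F in calcium-free KSW, and 5579 ± 1363 CPM in A to C and 3244 ± 584 CPM in D to F in cytochalasin D (SD, n = 15 each). In streptomycin the sum was 2739 ± 400 CPM in A to C and 3617 ± 419 CPM in D to F (SD, n = 12 each). The streptomycin A to C libraries ran from 2054 to 3479 CPM, and D to F from 2955 to 4274 CPM, so the sets overlap. Within pairs the sum was higher in A to C in 15 of 15 calcium-free pairs, 15 of 15 cytochalasin D pairs and 1 of 12 streptomycin pairs. The exception was the C and F pair at T0, at 3071 CPM in C and 2955 CPM in F.

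The summed levels at T0 can be set side by side across treatments, as a description only, since the choice favours genes high in A to C of calcium-free KSW and cytochalasin D. At T0 the summed level in A to C was 7163 ± 1784 CPM in calcium-free KSW, 6011 ± 650 CPM in cytochalasin D and 2867 ± 240 CPM in streptomycin (SD, n = 3 each). In D to F it was 4073 ± 933 CPM in calcium-free KSW, 3429 ± 896 CPM in cytochalasin D and 3686 ± 671 CPM in streptomycin. The streptomycin A to C libraries at T0, at 2602, 2928 and 3071 CPM, lay below every A to C library of the other treatments at that time point, the lowest of which had 5363 CPM. At T1 the sums in D to F were 5514 CPM in calcium-free KSW, 3821 CPM in cytochalasin D and 3653 CPM in streptomycin.

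Gene by gene, 71 of the 80 members (88.75%) had a mean within-pair difference below 0 in streptomycin, against 69.0% of the 5932 genes. The members' median was −0.37 and that of all 5932 genes −0.11, so on this scale the bulk of genes was also somewhat lower in A to C. The lowest member was at −1.33 (rank 35). The 9 members above 0 reached only 0.02 to 0.31. A difference below −0.5 was seen in 26 members (32.5%) and in 511 of the 5932 genes (8.61%). A difference below −1 was seen in 3 members (3.75%) and in 29 of all (0.489%).

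The lower level in A to C was spread over most of the list, but no member separated the letter sets cleanly. The mean level was lower in A to C in 70 of the 80 members, against 65.96% of all 5932 genes. At least 9 of the 12 pairs were below 0 in 33 members (41.25%), against 17.19% of all. No member had all 12 A to C libraries below all 12 D to F libraries, which 1 of the 5932 genes did.

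**Figure D2:**
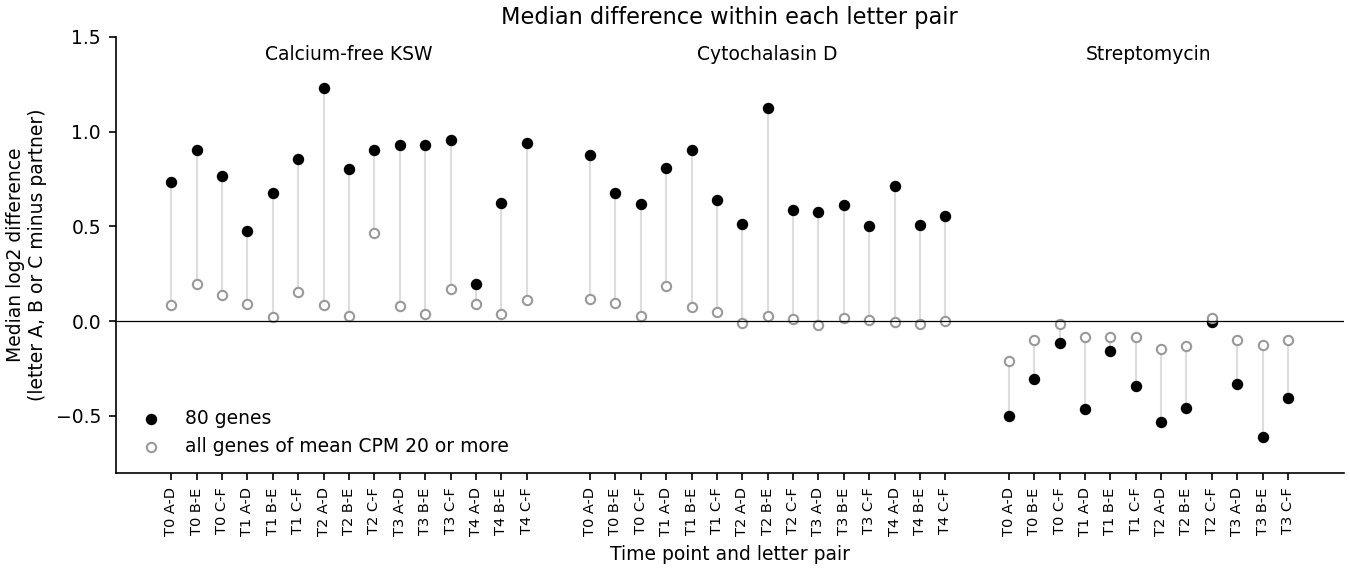
Median log2 difference (letter A, B or C minus its partner, vertical axis) over the 80 genes (filled) and over all 5932 genes of mean CPM 20 or more (open) for each of 42 letter pairs (horizontal axis). The members' medians are above 0 in every calcium-free and cytochalasin D pair and below 0 in every streptomycin pair, where they range from −0.61 to −0.004. The medians of all 5932 genes in streptomycin range from −0.21 to 0.02.

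The direction was the same in every streptomycin pair. The members' median was below 0 in 12 of 12 pairs, and in 11 of 12 it lay farther from 0 than the median of all 5932 genes in that pair. The median of all genes was itself below 0 in every pair but T2 C and F, and ran from −0.21 to 0.02. The sign alone therefore does not set the members apart. At T0 the members' median was −0.50 in A and D, −0.31 in B and E and −0.12 in C and F. At T1 it was −0.46, −0.16 and −0.34, at T2 −0.53, −0.46 and −0.004, and at T3 −0.33, −0.61 and −0.41, in the same order of pairs. The T2 C and F pair is thus the one in which the members hardly differed. Over time points the members' median was −0.34 at T0, −0.46 at T1, −0.38 at T2 and −0.45 at T3, with 61, 60, 56 and 65 of the 80 below 0. The medians of all 5932 genes were −0.12, −0.07, −0.11 and −0.13. The members' median was −0.45 over the A and D pairs, −0.50 over B and E and −0.22 over C and F, so the shortfall was smallest in the C and F pairs. Over all genes these medians were −0.17, −0.11 and −0.06.

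Whether the difference between letter sets depended on the length of exposure was tested with edgeR's quasi-likelihood F test of the letter set by time point interaction. It called 0 of the 9 members that passed its filter on low counts and 0 of 2197 genes tested (0% of all), with 7.92% of them at an unadjusted p under 0.05. DESeq2 also called 0 genes, and edgeR with DESeq2's size factors called 1 gene (0.0455%), not a member. With no filter, where all 80 members entered, edgeR called 0 members and 17 of 21448 genes (0.0793%). At an unadjusted p under 0.05 there were 3 members and 2.41% of genes in that fit.

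**Figure D3:**
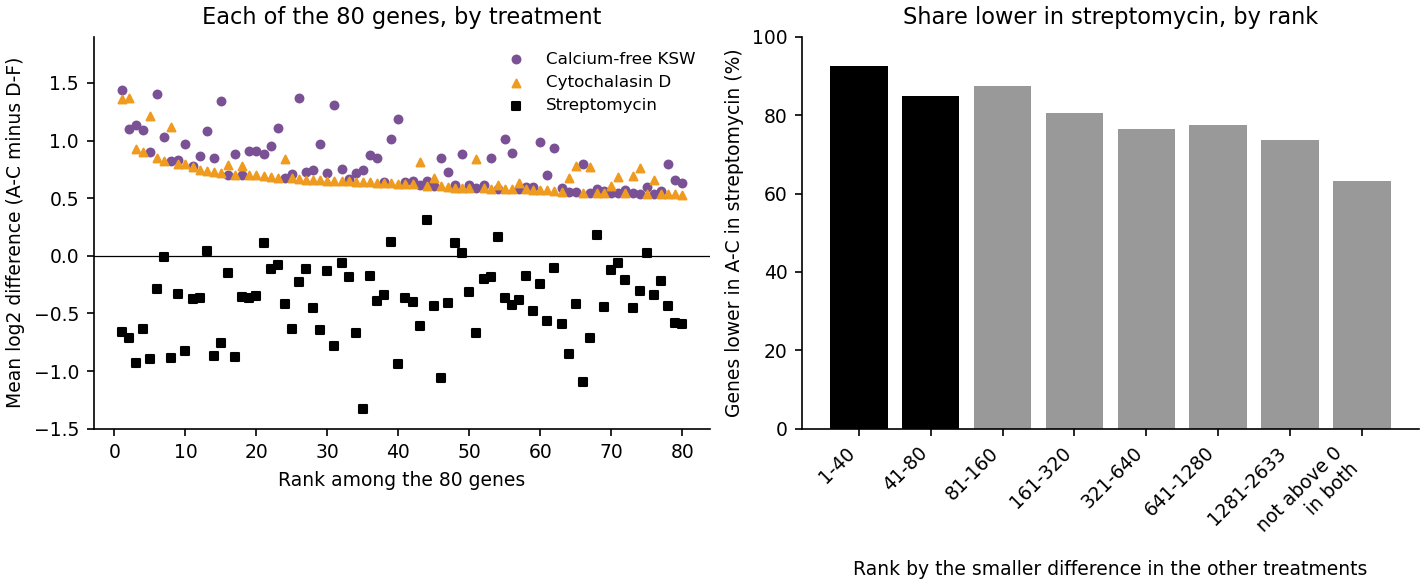
Left, the mean log2 difference between A to C and D to F (vertical axis) of each of the 80 genes by rank (horizontal axis) in the 3 treatments, with streptomycin as black squares. Right, the percent of genes below 0 in streptomycin (vertical axis) by rank of the smaller difference in the other treatments (horizontal axis). The share is 92.5% for ranks 1 to 40 and 63.3% for genes not above 0 in both.

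The behaviour in streptomycin did not stop at rank 80. For ranks 1 to 40 the streptomycin median was −0.37 with 92.5% of genes below 0, and for ranks 41 to 80 it was −0.37 with 85%. The next genes, ranks 81 to 160, had a median of −0.28 with 87.5% below 0. The genes from there to rank 320 had −0.19 with 80.6%, and the last 1353 of the 2633 genes had −0.14 with 73.6%. The 3299 genes that were not above 0 in both treatments had a median of −0.07 with 63.3% below 0. Genes with a larger excess in A to C in the other treatments thus lay lower in streptomycin on the whole, although neighbouring bands of ranks do not all keep that order.

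The 80 genes most consistently lower in A to C in calcium-free KSW and cytochalasin D, chosen in the same way, gave a mixed picture in streptomycin. Gene by gene their median was −0.10, with 31 above 0 and 49 below, close to the median of all 5932 genes. Their summed level, in which abundant genes weigh most, did turn round. It was 30346 ± 4551 CPM in A to C and 24494 ± 3816 CPM in D to F in streptomycin (SD, n = 12 each), higher in A to C in 12 of 12 pairs. In calcium-free KSW it was 15221 CPM in A to C and 21304 CPM in D to F, and in cytochalasin D 19042 CPM in A to C and 29220 CPM in D to F, lower in A to C in 14 of 15 and 15 of 15 pairs.

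Sizes of the difference can also be compared between treatments. Across the 80 genes Pearson's r was 0.404 between calcium-free KSW and cytochalasin D, −0.176 between calcium-free KSW and streptomycin and −0.31 between cytochalasin D and streptomycin. Across all 5932 genes the values were 0.372, −0.156 and −0.152. Genes are not independent replicates, they share libraries, and the members' range was narrowed by the choice, so these are descriptions. Nor did the members move as a tight block from pair to pair in streptomycin: the median correlation between 2 members' differences over the 12 pairs was 0.034, against 0.0098 between any of the 5932 genes.

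The count test in streptomycin used 12 blocks of time point and letter pair plus a term for letter set. Its filter on low counts kept 2197 genes and only 9 of the 80 members, so it speaks for the abundant members alone. In it 0 members were called higher in A to C, where 1.87% of genes tested were called, and 3 were called lower, where 1.37% were. When all 5932 genes of mean CPM 20 or more were tested, so that every member entered, 0 of 80 members were called higher (0.759% of genes tested) and 2 lower (0.337%). At an unadjusted p under 0.05, in either direction, there were 18 members and 623 of the 5932 genes. In that fit 66 of the 80 lay below 0 with a median of −0.29, while 49.9% of all genes did with a median of 0.00, since edgeR's TMM scaling centres the bulk of genes. With the library totals used for CPM above, 5 members were called lower (0.927% of genes tested), 69 lay below 0 and the median was −0.38, against 66.1% and −0.09 over all genes. The direction thus held on both scales, but few members could be called one by one. In the filtered set of genes, DESeq2 called 1 member lower (0.683% of genes tested), edgeR with DESeq2's size factors 2 (1.14%) and edgeR with no replicate block 2 (0.228%). DESeq2 gave no adjusted p for the other members that edgeR called lower.

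NVE6091, one of the abundant members, had 83.6, 165.8 and 255 CPM in streptomycin A to C (lowest, median and highest of 12 libraries), against 174.2, 252 and 359 CPM in D to F. The sets overlap in part, and 11 of 12 pairs were lower in A to C. Its log2 difference was −0.58 ± 0.12 (SE) with an adjusted p of 0.00209 by edgeR's quasi-likelihood test. In calcium-free KSW its median was 532 CPM in A to C and 222 CPM in D to F, and in cytochalasin D 371 CPM in A to C and 219 CPM in D to F.

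NVE12592 had the largest called difference. It had 16.7, 60.4 and 96.5 CPM in streptomycin A to C, against 62.2, 118.6 and 189 CPM in D to F, and 11 of 12 pairs were lower in A to C. The log2 difference was −0.76 ± 0.18 (SE) with an adjusted p of 0.00923, and without the T3 B and E pair it was −0.59 with an adjusted p of 0.0618. The same gene had median levels of 358 CPM in A to C and 171.03 CPM in D to F in calcium-free KSW, and of 218 CPM in A to C and 126 CPM in D to F in cytochalasin D. The third called member was lower in A to C in 12 of 12 pairs, with a log2 difference of −0.49 ± 0.14 (SE) and an adjusted p of 0.0448, and was no longer called in 10 of the 12 fits that each left out 1 pair.

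The one member above 0 in the count test was NVE22387. It had 37.8, 85.7 and 145.7 CPM in streptomycin A to C, against 20.1, 74.5 and 125 CPM in D to F, which overlap almost wholly, and 8 of 12 pairs were higher in A to C. Its log2 difference of 0.29 ± 0.17 (SE) was not called (edgeR adjusted p = 0.430).

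**Figure D4:**
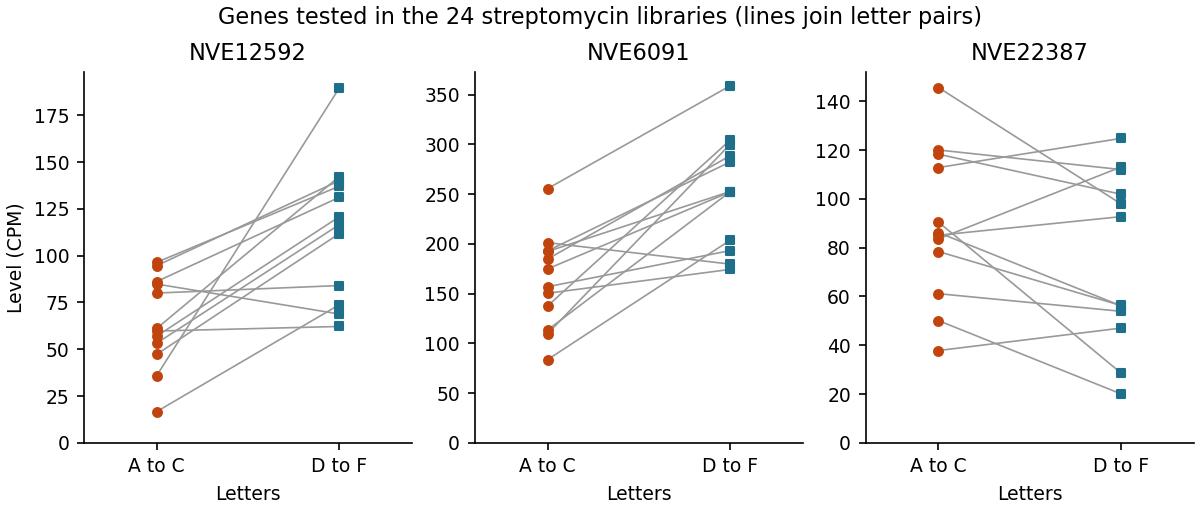
Level in CPM (vertical axes, each from 0) of NVE12592, NVE6091 and NVE22387 in the 24 streptomycin libraries, with letters A to C left and D to F right and lines joining partners. NVE12592 and NVE6091 are lower in A to C in 11 of 12 pairs each, and NVE22387 in 4 of 12.

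The libraries themselves differed between the letter sets in the same sense as the members, and this also turned round in streptomycin. Genes with at least 1 read numbered 14889 ± 947 in A to C and 13661 ± 1062 in D to F in calcium-free KSW, and were more in A to C in 13 of 15 pairs. The numbers were 14705 ± 1045 in A to C and 14085 ± 671 in D to F in cytochalasin D (12 of 15 pairs), and 11991 ± 763 in A to C and 13286 ± 852 in D to F in streptomycin (1 of 12 pairs). Each difference passed an exact two-sided sign-flip permutation test over pairs, with adjusted p of 0.00385, 0.0137 and 0.00732 over 9 such tests. The share of reads in the 10 most read genes ran the other way, at 27.6% in A to C and 32.3% in D to F in calcium-free KSW, 26.2% in A to C and 28.9% in D to F in cytochalasin D, and 40.01% in A to C and 34.1% in D to F in streptomycin (exact permutation test, adjusted p = 0.0428, 0.00893 and 0.00385). In streptomycin it was higher in A to C in 12 of 12 pairs. Without the calcium-free pair T2 C and F it was 27.5% in A to C and 33.9% in D to F in calcium-free KSW, higher in A to C in 0 of 14 pairs (exact permutation test, unadjusted p = 0.000122), and genes detected were 14889 in A to C and 13516 in D to F (unadjusted p = 0.000244).

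**Figure D5:**
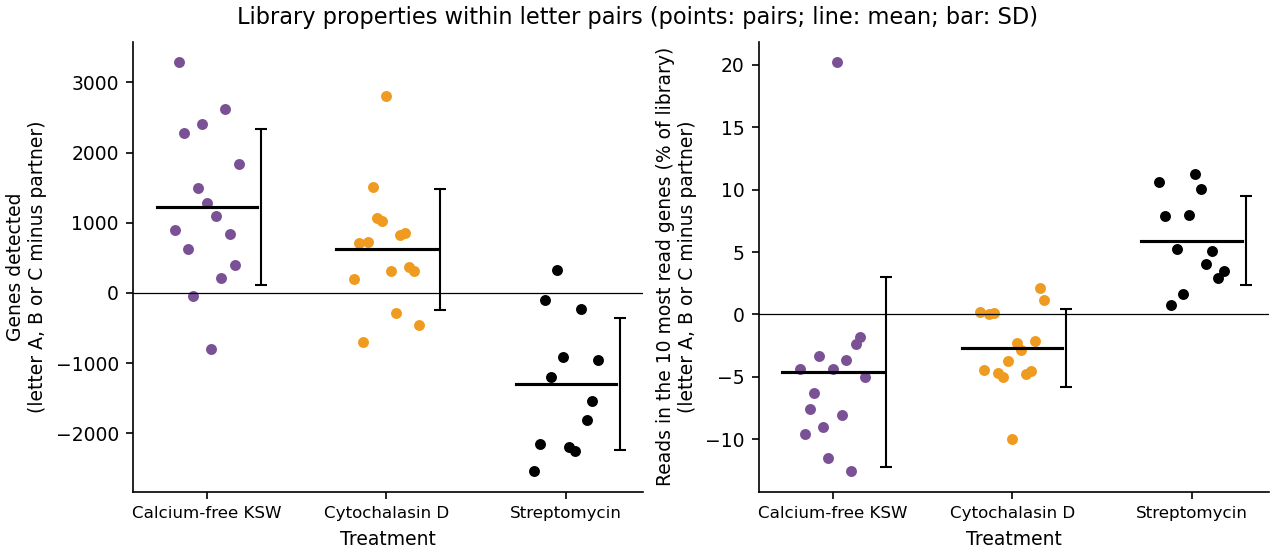
Within-pair difference (letter A, B or C minus its partner) in genes detected (left, number of genes) and in the share of reads taken by the 10 most read genes (right, percentage points) by treatment. Points are letter pairs, lines are means and bars are SDs. In streptomycin genes detected are fewer in A to C in 11 of 12 pairs and the share is higher in 12 of 12.

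Total reads were fewer in A to C in streptomycin, at 247921 ± 31460 reads in A to C and 287940 ± 39794 reads in D to F (10 of 12 pairs, exact permutation test, adjusted p = 0.0137). In calcium-free KSW and cytochalasin D the totals were not shown to differ (exact permutation test, adjusted p = 0.294 and 0.157). Without the T2 C and F pair the calcium-free totals were 345371 reads in A to C and 299655 reads in D to F (exact permutation test, unadjusted p = 0.0247). When every library was thinned to 105690 reads outside the 10 most read genes, the members had 290 ± 43.7 reads in streptomycin A to C and 381 ± 42.9 reads in D to F, higher in A to C in 1 of 12 pairs. They had 752 ± 195 reads in A to C and 423 ± 117 reads in D to F in calcium-free KSW, and 579 ± 140 reads in A to C and 349 ± 60.2 reads in D to F in cytochalasin D, higher in A to C in every pair. CPM already divides by the reads outside the 10 most read genes, so these thinned sums largely repeat the CPM sums. They cannot show whether depth has a part in the members' order. Genes detected at equal depth still differed, but by less. In streptomycin they were 10727 ± 294 in A to C and 11093 ± 189 in D to F, against 11991 and 13286 without thinning. In calcium-free KSW they were 11710 ± 349 in A to C and 11115 ± 319 in D to F, and in cytochalasin D 11257 ± 308 and 11005 ± 223. They were more in A to C in 15 of 15, 12 of 15 and 1 of 12 pairs of calcium-free KSW, cytochalasin D and streptomycin.

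With genes detected as a further term in the streptomycin fit of all 5932 genes, 0 genes were called (338 genes and 4 members at an unadjusted p under 0.05 by edgeR), and 47 of the 80 members lay below 0 with a median of −0.19, against 48.3% of all genes. With the share of the 10 most read genes as the further term, 0 members were called (11 members and 355 genes at an unadjusted p under 0.05 by edgeR), 2 genes were called higher and 1 lower, and 52 members lay below 0 with a median of −0.27, against 47.6% of all. Both terms go with letter set across these libraries. The 3 pairs with the smallest gaps in genes detected were also those with the members' medians nearest 0. Genes detected were 11646 in B and 11322 in E at T1, 12911 in C and 13007 in F at T0, and 13247 in C and 13475 in F at T2, with members' medians of −0.16, −0.12 and −0.004. These pairs were picked after the values were seen, and the other pairs did not all keep such an order. The B and E pair had 11644 and 13796 genes at T0 with a median of −0.31. At T3 its gap was smaller, at 12551 and 14086 genes, with a median of −0.61. In T1 B and E, the one pair with more genes detected in A to C, the share of the 10 most read genes was still higher in B, at 42.8% against 41.2% in E. Apart from these fits, the part of library composition in the members' difference was not tested.

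The main fits of the recovery time courses had no term for letters. There the difference between letter sets that chose the members adds to their spread within a time point, which works against calling them. In calcium-free KSW, 0 of the 66 members that passed the filter changed over time by edgeR's F test against T0 (0.669% of genes tested did), 19 of the 66 at an unadjusted p under 0.05, as were 17.6% of genes tested. The largest fitted mean changes were 0.85 for NVE4485 and 0.71 for NVE22387 upward and −1.01 for NVE16394 and −0.71 for NVE23461 downward, none of them called (adjusted p = 0.161, 0.440, 0.216 and 0.272 by edgeR). The count was 5 (1.61% of genes tested) with letters as a replicate block, 3 (1.22%) with a term for letter set, 4 (2.42%) by DESeq2, 17 of 80 (2.59%) with no filter and 2 of 72 (3.68%) without T2 C and T2 F. The members' own shares in these fits were 7.58%, 4.55%, 6.06%, 21.2% and 2.78%. Among all genes of mean CPM 20 or more, 0 of 80 members were called, against 0.556% of genes tested. At an unadjusted p under 0.05 by edgeR there were 18 of the 80 and 16.1% of genes tested. The mean summed level was 7163, 8956, 8124, 6184 and 4885 CPM from T0 to T4 in A to C, and 4073, 5514, 4366, 2982 and 3121 CPM in D to F.

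In cytochalasin D, 2 of the 52 members that passed the filter were called over time, both downward, against 7.85% of genes tested in either direction and 4.15% downward, and the members' own share was 3.85%. NVE6091 had medians of 410, 352, 274, 198 and 221 CPM from T0 to T4 (n = 6 each), a mean log2 change of −0.47 with an adjusted p of 0.0405 by edgeR. NVE7025 had medians of 34.5, 62.8, 25.3, 19.6 and 26.8 CPM, highest at T1, with a mean log2 change of −0.25 and an adjusted p of 0.0212 by edgeR. With letter pairs summed neither was called (edgeR adjusted p = 0.0918 and 0.0779). The largest fitted rises, 1.02 for NVE25940 and 0.62 for NVE25263, were not called (edgeR adjusted p = 0.103 and 0.506). The count was 8 (10.4% of genes tested) with letters as a replicate block, 10 (10.4%) with a term for letter set, 4 (9.2%) by DESeq2, 17 of 80 (2.88%) with no filter and 0 of 80 (2.14%) with letter pairs summed. In that last fit 21 of the 80 members and 15.4% of genes tested were at an unadjusted p under 0.05. The members' own shares were 15.4% with the block, 19.2% with a term for letter set, 7.69% by DESeq2 and 21.2% with no filter. Their share thus lay above that of all genes in both fits with a term for letters and with no filter. The members' share lay below in the others. With no filter, most of the 22600 genes tested had mean levels under the 20 CPM that every member had to reach. Among all genes of mean CPM 20 or more, 2 of 80 members were called (2.5%), against 5.8% of genes tested.

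In streptomycin, 0 of the 16 members that passed the filter were called over lengths of exposure by edgeR (3.07% of genes tested). At an unadjusted p under 0.05 by edgeR there were 2 of the 16, and 19.1% of genes tested. DESeq2 called 0 of the 16 (4.93% of genes tested). With no filter 1 of 80 was called (1.2% of genes tested). Among all genes of mean CPM 20 or more it was 0 of 80 (1.3% of genes tested). The largest fitted changes were 0.78 for NVE22387 and 0.40 for NVE7025 upward, and −0.42 for NVE6310 and −0.33 for NVE6091 downward, none called (edgeR adjusted p = 0.181, 0.433, 0.342 and 0.624). The summed level stayed in a narrow band, at 2867, 2670, 2780 and 2638 CPM from T0 to T3 in A to C, and 3686, 3653, 3464 and 3664 CPM in D to F.

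Levels at T0 were also compared between the treatments, but this comparison is not independent of the choice, which used the same calcium-free and cytochalasin D libraries, and members low in streptomycin passed the filter through the other treatments. The counts and values are therefore a description, from which nothing is read. Of the 74 members that passed the filter, edgeR's F test called 5 (3.06% of genes tested), all higher in the mean of calcium-free KSW and cytochalasin D than in streptomycin, a direction called for 1.5% of genes tested. With letters as a replicate block 7 were called (3.49%). NVE25651 had medians of 72.02 CPM in calcium-free KSW, 67.7 CPM in cytochalasin D and 10.6 CPM in streptomycin (n = 6 each). NVE16965 had medians of 72.9, 36.6 and 17.3 CPM in the same order. The largest fitted log2 differences the other way, which were not called, were −0.73 for NVE2190 and −0.67 for NVE7833. At T0 libraries of the same letter also deviated together between treatments, with lowest correlations of 0.16 to 0.237. The labels do not say what they share, so the treatments may not be fully separate samples there.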

How the data were processed

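Reads per gene model were deposited by the authors as 1 table of whole-number counts with no scaling for 23510 gene models in 84 libraries, all 84 columns matching 1 sample title each. Libraries were made by a tag-based protocol per the labels' protocols, and Bowtie2 is named in the submitters' processing notes. Its version, the genome build, the annotation, strand use and the handling of duplicates have no statement in the sources used here, so reads of near-identical or overlapping genes may have been shared between models. Totals ran from 194043 to 591692 reads. The labels do not tie libraries of a group to different animals, and p-values therefore reflect a spread that may be technical.

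The members, the letter sets and the tests were chosen with earlier results of these data known. Members were taken on CPM, the counts over totals without the 10 genes with most reads, as log2(CPM + 5) differences within letter pairs. Tests used edgeR 4.0.16 in R 4.3.3 (filterByExpr, TMM scaling, glmQLFit, glmQLFTest, Benjamini-Hochberg adjustment over all genes tested, threshold 0.05), with DESeq2 1.42.0 as an alternative. The script was tested on simulated counts first. Standard errors were derived from the F statistic. A call over time points was assigned its direction from the mean log2 change. Library properties were compared with exact sign-flip permutation tests over pairs (SciPy 1.17.1). Genes named are those called with the largest log2 difference, at most 2 in each direction per comparison, then the largest fitted and not called. The members at ranks 1 and 2 and the medians of all libraries of named genes were added as description.

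Blocks of time point and letter pair were set by the design of the members' rule. In streptomycin 24 of 24 libraries deviated from their group most like their letter partner, although the lowest partner correlation was 0.0147. Over all treatments 63 of 84 did, with 0 of 6 in cytochalasin D T4 and 2 of 6 in cytochalasin D T1. The lowest partner correlation of all was −0.297, in calcium-free T2. The pairing is thus less clear in the other treatments. Between treatments at T0 every same-letter correlation was above 0.1, a link between letters that the labels do not explain. Within a treatment every same-letter correlation was above 0.1 in 0 of 26 pairs of groups. Further fits, leaving out 1 letter pair at a time, other scalings, filters and terms, were run as alternatives. The fits of all genes of mean CPM 20 or more and those with genes detected or the share of the 10 most read genes as a term were added after the data were seen.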

Additional observations from a re-analysis of the deposited data

Results flagged for a closer look

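The median member difference in streptomycin, −0.37, is opposite in sign to calcium-free KSW and cytochalasin D, with 12 of 12 pairs below 0 against 15 of 15 and 15 of 15 pairs above. The median of all 5932 genes in streptomycin, −0.11, had the same sign, with 69.0% of genes below 0. Pair medians of all genes ran from −0.21 to 0.02 in streptomycin. They ran from 0.02 to 0.47 in calcium-free KSW and from −0.02 to 0.19 in cytochalasin D. The difference between treatments was not tested, since the members were chosen on calcium-free KSW and cytochalasin D.

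Library properties that did not choose the members also differed between treatments in their contrast of A to C minus D to F, by a permutation of treatment labels over pairs with 100000 resamples, adjusted over 6 comparisons. The contrast in genes detected differed by −2520 genes in streptomycin from calcium-free KSW and by −1910 genes from cytochalasin D (permutation test, adjusted p = 4e-05 each, from the smallest raw p the resamples can give, 2e-05). The contrast in the share of the 10 most read genes was higher in streptomycin by 10.5 percentage points than in calcium-free KSW (permutation test, adjusted p = 0.00045) and by 8.64 than in cytochalasin D (adjusted p = 4e-05). The contrast in total reads differed by −67400 from calcium-free KSW (permutation test, adjusted p = 0.032) and by −68500 from cytochalasin D (adjusted p = 0.0031). Without calcium-free T2 C and F the differences from calcium-free KSW were −2669 genes, 12.3 percentage points and −85735 reads. Genes detected were counted here without thinning, and their contrast at equal depth was not tested between treatments.

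Of 56 groups and measures examined, 5 held a library far from the other 5 of its group, where chance gives about 1 in 20. Cytochalasin D T2 B accounts for 3 of them, with 584632 reads, 17053 genes detected and 17.2% of reads in the 10 most read genes. Cytochalasin D T0 B had 24.9% of reads in those genes, against 29.4% to 30.6% in the other libraries of its group. Calcium-free T1 F had 13470 genes detected, against 14901 to 15667. Calcium-free T2 F, which was left out of the choice, was not among the libraries found in this way.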

How the results depend on the processing

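The count of members called higher in A to C in streptomycin was 0 in every fit run. The count called lower, 3 of 9 members tested, was 1 by DESeq2, 2 with DESeq2's size factors and 2 with no replicate block. DESeq2 gave no adjusted p for NVE12592 or for the third called member. It was 5 of 80 with all genes of mean CPM 20 or more on totals without the 10 most read genes, 0 with genes detected or the share of the 10 most read genes as a term, on either gene set, and 1 to 3 when 1 letter pair was left out. In the fits without 1 pair, 16 to 30 of all genes tested were called lower. Calls over all genes were 41 higher and 30 lower with TMM scaling and the replicate block, but 25 higher and 5 lower with no replicate block, 31 higher and 53 lower on totals without the 10 most read genes and 41 higher and 15 lower by DESeq2. The median difference of the 9 members tested, −0.37, was −0.11 with genes detected as a term. Without 1 pair, when 9 or 10 members were tested, it ranged from −0.48 to −0.29. Over time, members called in calcium-free KSW numbered 0 (0.669% of genes tested). Other fits gave 5 with the replicate block (1.61%), 3 with a letter set term (1.22%) and 17 with no filter (2.59%). DESeq2 gave 4 (2.42%), leaving out T2 C and T2 F gave 2 (3.68%) and all genes of mean CPM 20 or more gave 0 (0.556%). In cytochalasin D members called numbered 2 (7.85% of genes tested), but 8 with the replicate block (10.4%), 10 with a letter set term (10.4%) and 17 with no filter (2.88%). DESeq2 gave 4 (9.2%), letter pairs summed gave 0 (2.14%) and all genes of mean CPM 20 or more gave 2 (5.8%). In streptomycin members called numbered 0 (3.07%), but 1 with no filter (1.2%). The block moved no other count of members called by over 1.5 times. For these shifts the cause was not tested. NVE6091 was called lower in streptomycin in every fit without a composition term, and NVE12592 likewise except without the T3 B and E pair and in DESeq2. Depth limits the filtered fit in streptomycin to 9 of the 80 members.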
